A study of Homo sapiens with 44 samples.

Results

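Interferon-stimulated genes (ISGs) were followed across the RNA libraries of a study of EZH2 and NF-kB in triple-negative breast cancer cells. The 49 genes were taken from a list given by name, and all 49 were found among the 58735 genes of a count table and among the 27315 gene symbols of a variance-stabilised table. The study holds 44 samples. Of these, 14 are RNA sequencing libraries in 7 groups, each of 2 replicates described as biological, and the other 30, from chromatin immunoprecipitation, were not analysed here.

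In the first experiment, MDA-MB-231 cells were transfected with siRelA, with siRelB or with a control siRNA (siControl). The second used cells labelled SUM149 and MDA-MB-231 cells, each transfected with siEZH2 or with siControl. Small interfering RNA (siRNA) was given at 20 nM with the Dharmafect reagent, and cells were collected after 48 h. RELA and RELB are DNA-binding subunits of NF-kB, of its canonical and its non-canonical arm. EZH2 is the methyltransferase subunit of Polycomb repressive complex 2, which places the repressive mark H3K27me3. MDA-MB-231 and SUM149 are established human lines without oestrogen and progesterone receptor or HER2 amplification, SUM149 being derived from an inflammatory breast cancer. The labels name no added interferon, and each target was read with a single labelled siRNA condition.

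The count table held 18.6 to 24.4 M reads per library, and the read depth behind the variance-stabilised values is unknown. Transcripts of the targeted genes were low where the labels say they should be. RELA was at 7.66% of its siControl level after siRelA, RELB at 12.7% after siRelB, and EZH2 at 11% in MDA-MB-231 and 18.1% in SUM149 after siEZH2. RELB was also at 35.8% of siControl after siRelA, and at 31.9% in MDA-MB-231 and 57.8% in SUM149 after siEZH2. The T cell gene CD3E had 0 counts in all 6 libraries of the first experiment and lay at the lowest value in all 8 of the second. Of other blood cell genes, the leukocyte gene PTPRC had at most 4 counts and the lysozyme gene LYZ at most 7 in the first experiment. The myeloid genes CD14 and CD68 had 15 to 45 and 0 to 9 counts there. The genes ESR1 and PGR were at or near the lowest values. Some epithelial and mesenchymal genes of the libraries labelled SUM149 went against what is usual for that line: the siControl libraries had CLDN4, a tight-junction protein, at 7.68 and 7.41 on the variance-stabilised scale, CDH2, N-cadherin, at 12.38 and 12.45, and FN1, fibronectin, at 17.61 and 17.74. The other epithelial and mesenchymal markers examined, CDH1, EPCAM, KRT18, KRT8, VIM and ZEB1, are not given here. The values of CLDN4, CDH2 and FN1 alone therefore do not decide the identity of the line. The name SUM149 below means the libraries labelled so.

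ISGs are the genes that cells switch on when interferon binds its receptor. Receptor-bound JAK kinases start the assembly of the complex ISGF3, which holds STAT2 and IRF9, and ISGF3 binds the interferon-stimulated response element (ISRE) in ISG promoters. The response to interferon gamma uses a different element, the gamma-activated site (GAS), and IRF1 and IRF7 can bind ISRE-like sequences without ISGF3. The products hold back viruses in many ways: they bind viral RNA, trap virions at membranes, tag proteins with ISG15 or feed peptides to MHC class I. Many tumour lines express part of the set with no interferon added.

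Most of the promoters found carried a word of the ISRE. RefSeq promoter windows on GRCh38.p14, reaching from 250 bases before to 50 bases after the transcription start, were found for 41 of the 49 genes. The ISRE core, here GAAA, any 2 bases and GAAA again on either strand, occurred in 28 of these 41 (68.29%), against 4.38% of the 27305 genes with a window. The GAS core TTCNNNGAA occurred in 14 (34.15%), against 9.38% of all genes. An NF-kB word, GGG, any 2 bases, TT, any base and CC on either strand, occurred in 1 (2.44%, OAS3), against 6.85% of all genes. A word match is a description of the letters and not a measured binding site. Stretches of 30 bases around the ISRE core follow for genes whose levels carry the results below, written 5′ to 3′ on the strand of the gene, with the core or its reverse complement in capitals:
IFIT3, chr10:89332425-89332454, plus strand: acagattctgTTTCAGTTTCccctcaagag
IFIT1, chr10:89392497-89392526, plus strand: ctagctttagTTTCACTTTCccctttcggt
DDX60, chr4:168318821-168318850, minus strand: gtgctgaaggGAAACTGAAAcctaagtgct
SAMD9, chr7:93118096-93118125, minus strand: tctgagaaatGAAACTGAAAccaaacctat
GBP1, chr1:89065316-89065345, minus strand: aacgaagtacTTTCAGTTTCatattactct
DTX3L, chr3:122564322-122564351, plus strand: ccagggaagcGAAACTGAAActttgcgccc
PARP9, chr3:122564322-122564351, minus strand: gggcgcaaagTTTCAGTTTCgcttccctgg
ISG15, chr1:1013377-1013406, plus strand: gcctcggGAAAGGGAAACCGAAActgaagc

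In the stretches printed, DDX60, SAMD9 and DTX3L carried the same 10 letters GAAACTGAAA in the sense direction, and IFIT3, GBP1 and PARP9 carried their reverse complement. Another annotated start of IFIT3 had an ISRE core with other letters. DTX3L and PARP9 face away from each other and share 1 stretch. The same element begins 6 bases before the start of DTX3L and runs past it. For PARP9 it begins 41 bases before 1 annotated start, and the window of another PARP9 start held no ISRE core. In ISG15 the overlapping matches form a run of 16 bases. These positions are from GRCh38 and were not converted to hg19, the build of the deposited tables.

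By the order of protein-coding genes in the RefSeq annotation, 27 of the 49 genes lay in 11 clusters of neighbouring members. Members counted as neighbours when at most 1 other protein-coding gene lay between them. IFIT2, IFIT3, IFIT1 and IFIT5 stood together on chromosome 10, IFITM2, IFITM1 and IFITM3 on chromosome 11, OAS1, OAS3 and OAS2 on chromosome 12, and PARP9, DTX3L and PARP14 on chromosome 3. The pairs were DDX60 with DDX60L and HERC6 with HERC5 on chromosome 4, SAMD9 with SAMD9L on chromosome 7, MX2 with MX1 on chromosome 21, PSMB8 with PSMB9 on chromosome 6, IFI44L with IFI44 on chromosome 1 and CMPK2 with RSAD2 on chromosome 2.

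The comparison of siRelA with siControl asks which ISGs change when RelA is depleted. Of 49 ISGs tested after siRelA, 21 rose, 4 fell and 24 were not called (edgeR quasi-likelihood test, Benjamini-Hochberg adjusted p under 0.05 over 15930 genes), where 8.82% of all tested genes rose and 10.2% fell. The median log2 fold change was 0.42 over the 49 genes and 0.02 over all genes. The sign was positive in 39 and negative in 10. Their summed level was 1923 and 2121 CPM, counts scaled to library size, in the siRelA libraries, against 1624 and 1653 CPM in the siControl libraries. In bulk RNA a change in every cell and a change in a few cells cannot be told apart.

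**Figure D1:**
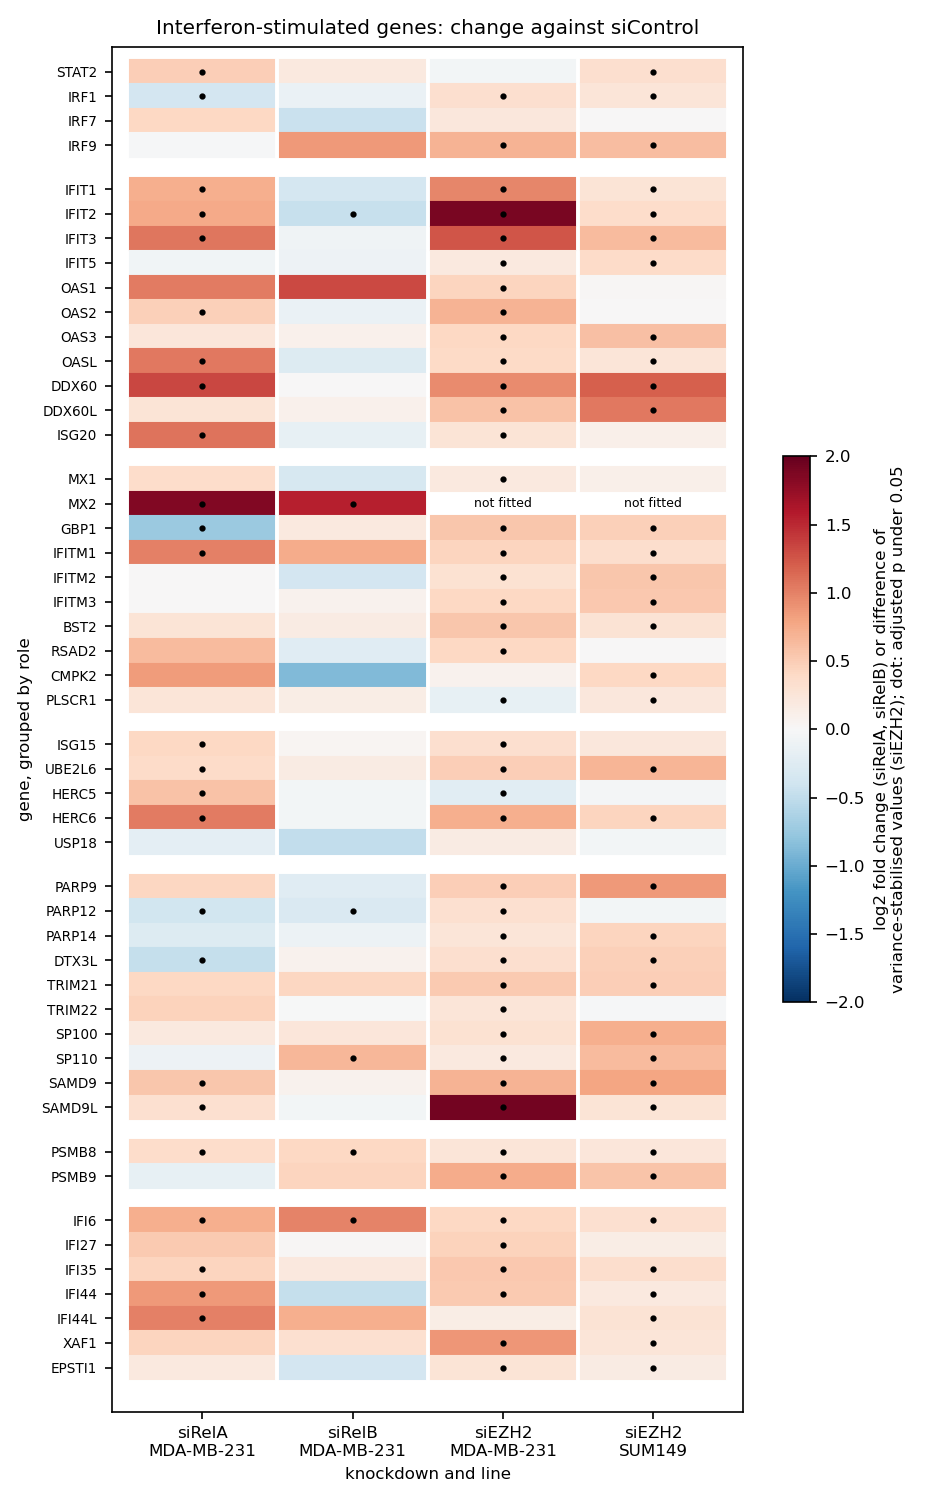
Changes of the 49 interferon-stimulated genes (rows, grouped by role) after siRelA, siRelB and siEZH2 in MDA-MB-231 and siEZH2 in SUM149 (columns), as log2 fold change for the first experiment and as difference of variance-stabilised values for the second. Dots mark adjusted p under 0.05. The siRelA column has 21 higher and 4 lower, the siRelB column 4 and 2, and the siEZH2 columns 41 and 2 in MDA-MB-231 and 36 and 0 in SUM149. MX2 was not fitted in the second experiment.

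Among the regulators, STAT2, a subunit of ISGF3, had 50.4 and 56.2 CPM after siRelA, against 36.8 and 38.8 CPM in siControl. It rose by 0.49 ± 0.11 (log2 fold change ± SE, edgeR adjusted p = 0.00447), and without siControl replicate 1 it no longer passed (0.45, adjusted p = 0.0647). IRF1, a transcription factor that is itself a known NF-kB target, had 37.3 and 40.6 CPM after siRelA, against 55.0 and 45.7 CPM in siControl. It fell by 0.37 (adjusted p = 0.0382 by edgeR). That call was lost without siControl replicate 1 (-0.24, edgeR adjusted p = 0.388) and without siRelA replicate 1 (-0.33, adjusted p = 0.155), and also with total counts as the only scaling (-0.30, edgeR adjusted p = 0.087). IRF7, which amplifies interferon production, had 14.8 and 17.1 CPM after siRelA, against 11.4 and 12.4 CPM in siControl, a change of 0.42 ± 0.17 that did not pass. IRF9 had only 7 to 22 counts in any library, too few to read a change. Another annotated gene overlaps 27.2% of the IRF9 exon bases, and the part of this overlap in the low counts was not tested.

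Of the 11 genes for RNA binding proteins and oligoadenylate enzymes, 7 rose and the median was 0.76. IFIT3, which binds and stabilises IFIT1 on viral RNA, had 179.0 and 179.5 CPM after siRelA, against 82.2 and 88.5 CPM in siControl. IFIT1, which binds RNA that lacks the host cap methylation, had 74.6 and 82.3 CPM after siRelA, against 42.8 and 52.6 CPM in siControl. IFIT2 had 57.1 and 62.5 CPM after siRelA, against 34.4 and 36.2 CPM in siControl. No siRelA library of these 3 genes overlapped a siControl library, and the changes were 1.07 ± 0.09, 0.72 ± 0.13 and 0.76 ± 0.11 (edgeR adjusted p = 2.1e-07, 0.00072 and 0.00012). IFIT5, at the end of the same cluster, had 50.8 and 46.5 CPM after siRelA, against 49.9 and 52.5 CPM in siControl, a change of -0.07 ± 0.11 (edgeR adjusted p = 0.7). Part of the IFIT2 exons, 13.6% of the bases, overlaps another annotated gene, and whether reads were counted by strand is not known.

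DDX60, a helicase-like protein that promotes RNA sensing, had the largest rise among genes with over 100 counts in every library. It had 50.7 and 59.2 CPM after siRelA, against 19.4 and 23.9 CPM in siControl, a 2.53-fold difference (1.34 ± 0.13, edgeR adjusted p = 2.4e-06). Its neighbour DDX60L had 54.2 and 56.0 CPM after siRelA, against 42.0 and 48.8 CPM in siControl, and did not pass (0.28 ± 0.11, edgeR adjusted p = 0.0816). OASL, an OAS relative that enhances RIG-I signalling, rose by 1.06 ± 0.19, with 15.3 and 20.2 CPM after siRelA, against 8.06 and 8.91 CPM in siControl (edgeR adjusted p = 0.00092). OAS2, which makes the oligoadenylates that activate RNase L, rose by 0.48 ± 0.14, a call lost without siControl replicate 1, siControl replicate 2 or siRelA replicate 1 (edgeR adjusted p = 0.0621, 0.187 and 0.108). ISG20, an exonuclease, had 5.67 and 11.2 CPM after siRelA, against 3.53 and 4.37 CPM in siControl. Its rise of 1.09 ± 0.30 rested on siRelA replicate 2: without it the change was 0.51 (edgeR adjusted p = 0.325), and without siControl replicate 1 it was 0.93 (adjusted p = 0.143).

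**Figure D2:**
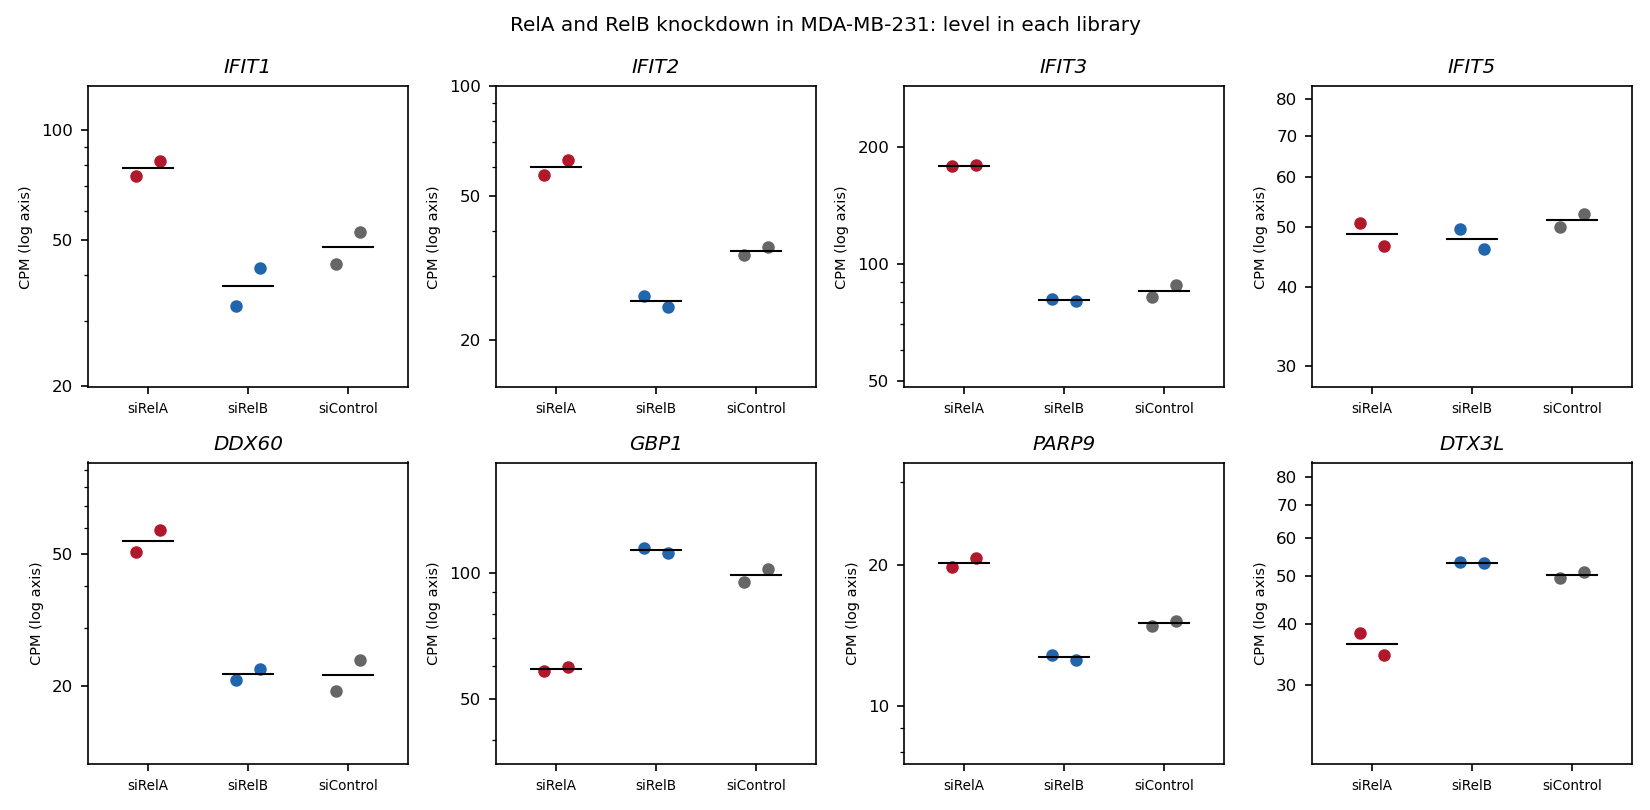
Level in CPM (log axis) of 8 interferon-stimulated genes in each library of the siRelA, siRelB and siControl groups, 2 points per group. IFIT1, IFIT2, IFIT3 and DDX60 are highest after siRelA, GBP1 and DTX3L are lowest after siRelA, and IFIT5 overlaps between siRelA and siControl.

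Of the 5 genes listed under ISG15 conjugation, the attachment of the ubiquitin-like protein ISG15 to other proteins, 4 rose. Conjugation itself was not measured, and the part of each product in it was not tested. HERC6 had 41.6 and 43.2 CPM after siRelA, against 20.6 and 20.5 CPM in siControl (1.04 ± 0.12, edgeR adjusted p = 1.5e-05). HERC5, the main human ISG15 ligase, had 53.8 and 55.6 CPM after siRelA, against 34.6 and 38.1 CPM in siControl (0.59 ± 0.11, edgeR adjusted p = 0.0014). These 2 neighbours kept their calls in every alternative run. ISG15 had 159 and 202 CPM after siRelA, against 132 and 138 CPM in siControl, and UBE2L6, its conjugating enzyme, 47.3 and 50.9 CPM, against 39.2 and 36.2 CPM in siControl. Their rises of 0.42 and 0.38 were each lost without siControl replicate 1, siControl replicate 2 or siRelA replicate 2 (edgeR adjusted p from 0.0861 to 0.245), and that of UBE2L6 also without siRelA replicate 1 (adjusted p = 0.0625). The call of ISG15 was lost in the robust edgeR fit as well (adjusted p = 0.052). USP18, the protease that removes ISG15 and dampens the receptor, had 4.37 and 4.41 CPM after siRelA, against 5.65 and 4.37 CPM in siControl.

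Of the 10 GTPases and membrane or lipid effectors, 2 rose, 1 fell and 7 were not called. GBP1, a GTPase that attacks pathogen-containing vacuoles, had 58.3 and 59.6 CPM after siRelA, against 95.3 and 103 CPM in siControl. It fell by 0.75 (SE 0.09, edgeR adjusted p = 1.9e-05), a 1.68-fold difference that held in every alternative run. MX2, which blocks nuclear import of HIV-1, had 67 and 55 reads after siRelA, against 19 and 14 reads in siControl, and its 1.85 ± 0.46 (edgeR adjusted p = 0.00911) was lost without siControl replicate 2 (1.66, adjusted p = 0.0885). IFITM1, which hinders membrane fusion, had 5.02 and 5.14 CPM after siRelA, against 2.41 and 2.65 CPM in siControl. Its rise of 1.00 ± 0.28 (edgeR adjusted p = 0.0172) was lost when any siRelA or siControl library was left out (adjusted p from 0.0509 to 0.133). Its neighbours IFITM2 and IFITM3 had changes of 0.01 ± 0.14 and 0.00 ± 0.12. The 3 IFITM sequences are much alike and 31.6% of the IFITM1 exon bases overlap another gene, so reads may be shared among them.

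The genes for ADP-ribosylation, TRIM, SAMD9 and nuclear body proteins gave 2 rises and 2 falls among 10. SAMD9, a translation-blocking antiviral factor, had 61.4 and 61.1 CPM after siRelA, against 35.0 and 48.4 CPM in siControl (0.56 ± 0.13, edgeR adjusted p = 0.00593). Without siControl replicate 1 the change was 0.33 (adjusted p = 0.157 by edgeR). SAMD9L rose by 0.32 with an edgeR adjusted p of 0.0422, and that call was lost in 10 of its alternatives (adjusted p from 0.0513 to 0.39), among them each one that left out a library. PARP12 fell by 0.39, with 62.8 and 71.5 CPM after siRelA, against 91.8 and 84.4 CPM in siControl (adjusted p = 0.00985 by edgeR), which was lost without siControl replicate 1 or siRelA replicate 1 (adjusted p = 0.107 and 0.0825). DTX3L, a ubiquitin ligase, had 38.3 and 34.5 CPM after siRelA, against 49.7 and 51.1 CPM in siControl, and fell by 0.47 (SE 0.11, edgeR adjusted p = 0.0049). PARP9, the partner of DTX3L in 1 protein complex and its neighbour across the shared promoter printed above, had 19.8 and 20.7 CPM after siRelA, against 14.8 and 15.2 CPM in siControl. The PARP9 libraries did not overlap, yet its change of 0.43 ± 0.15 missed the threshold (edgeR adjusted p = 0.0524).

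The other groups were small. Among 7 further induced genes, 4 rose: IFI44 (0.86 ± 0.16), IFI44L (1.00 ± 0.30), IFI6 (0.73 ± 0.20) and IFI35 (0.45 ± 0.14). IFI44 had 35.2 and 51.9 CPM after siRelA, against 22.8 and 25 CPM in siControl, and passed in every alternative run. IFI6, a mitochondrial and ER protein that restrains apoptosis, was lost without siControl replicate 1, siControl replicate 2 or siRelA replicate 2 (edgeR adjusted p = 0.124, 0.0687 and 0.176), and its change was 0.47 without siRelA replicate 2. IFI44L was lost without siControl replicate 2 or siRelA replicate 1 (adjusted p = 0.263 and 0.106), and IFI35 without either siControl library or siRelA replicate 2 (edgeR adjusted p from 0.142 to 0.222). Both were also lost in DESeq2 (adjusted p = 0.0578 and 0.0573). Of the immunoproteasome subunits, PSMB8 rose by 0.36, lost without siControl replicate 2 or either siRelA library (edgeR adjusted p from 0.059 to 0.252), and PSMB9 had 17.0 and 27.4 CPM after siRelA, against 25.2 and 24.5 CPM in siControl.

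By promoter word, 12 of the 28 genes with the ISRE core rose after siRelA and 5 of the 13 without it. The count of rises fell to 11 without siControl replicate 1 and to 11 without siControl replicate 2, and was 13 without siRelA replicate 2. The count of falls was 2 without siControl replicate 1 and 2 without siRelA replicate 1. DDX60, HERC5, HERC6, IFI44, IFIT1, IFIT2, IFIT3 and OASL rose, and DTX3L and GBP1 fell, in every alternative run. Scaled to total counts only, with no further normalisation, 27 ISGs rose and 3 fell, and the share of risers among all called genes was 61.2% in place of 46.4%, with the median of all genes shifted to 0.09.

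Knockdown of RelB, which left RELA at 106% of siControl, moved few of these genes. Of 49 tested, 4 rose and 2 fell, where 7.45% of all tested genes rose and 10.8% fell, and the median log2 fold change was 0.03. The summed level was 1616 and 1748 CPM after siRelB, against 1624 and 1653 CPM in siControl, so the groups overlapped. MX2 (1.56), IFI6 (0.99), SP110 (0.66) and PSMB8 (0.42) rose, and IFIT2 (-0.46) and PARP12 (-0.31) fell. IFI6 had 12.5 and 13.5 CPM after siRelB, against 6.34 and 6.80 CPM in siControl (edgeR adjusted p = 0.0022). It was the single call that held in every alternative run. Another annotated gene overlaps 23.1% of the IFI6 exon bases, and no alternative run changed how reads were counted. SP110, a nuclear body protein, had 21.4 and 23.2 CPM after siRelB, against 14.4 and 13.9 CPM in siControl (edgeR adjusted p = 0.0107). It was lost without siControl replicate 1, siControl replicate 2 or siRelB replicate 2 (adjusted p = 0.0658, 0.0919 and 0.0517). IFIT2 had 26.5 and 24.7 CPM after siRelB, against 34.4 and 36.2 CPM in siControl (edgeR adjusted p = 0.00956), lost without siControl replicate 2 or siRelB replicate 2 (adjusted p = 0.0819 and 0.0658). The calls of MX2, PSMB8 and PARP12 were lost without at least 2 single libraries each (edgeR adjusted p from 0.0709 to 0.249), and MX2 had at most 67 reads in any library. Rises numbered 2 without siControl replicate 1, 1 without siControl replicate 2 and 2 without siRelB replicate 2, and falls numbered 0 without siControl replicate 2, 1 without siRelB replicate 2 and 4 without siRelA replicate 1 or siRelA replicate 2. On total counts only, 1 ISG fell, and the share of risers among all called genes was 53.9% in place of 40.7%.

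The siRelA and siRelB comparisons share their siControl libraries, so the 2 knockdowns were also compared directly. Of 49 ISGs, 18 were higher and 4 lower after siRelA than after siRelB, where 16.0% of all tested genes were higher and 14.0% lower. The 6 largest called differences with higher levels after siRelA were in IFI44 (1.35), DDX60 (1.34), OASL (1.34), ISG20 (1.25), IFIT2 (1.22) and IFIT3 (1.15). For IFIT2 the values were 57.1 and 62.5 CPM after siRelA, against 26.5 and 24.7 CPM after siRelB, with siControl between them. ISG20 was lost without siRelA replicate 2 (0.68, edgeR adjusted p = 0.134). GBP1 (-0.95), SP110 (-0.76), PSMB9 (-0.60) and DTX3L (-0.55) were lower after siRelA, and PSMB9 was lost without siRelA replicate 1 (-0.31, edgeR adjusted p = 0.19).

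The transcripts of PARP9 and DTX3L differed in opposite directions here, and the output of their promoters was not measured. PARP9 had 19.8 and 20.7 CPM after siRelA, against 12.9 and 12.6 CPM after siRelB (0.67 ± 0.15, edgeR adjusted p = 0.00292). DTX3L had 38.3 and 34.5 CPM after siRelA, against 53.4 and 53.2 CPM after siRelB (-0.55 ± 0.11, edgeR adjusted p = 0.00093). IRF7 was higher after siRelA as well, at 14.8 and 17.1 CPM, against 8.81 and 8.58 CPM after siRelB (0.87 ± 0.17, edgeR adjusted p = 0.00102). All of these 3 calls held in every alternative run.

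The second experiment asks which transcripts depend on EZH2 in each line. Its values are variance-stabilised, on a scale close to log2 at high levels and compressed near its lowest value of 7.12, so the difference of 2 values understates the fold change of a low gene. For that reason normalised counts obtained by inverting the transformation are given beside the differences. The inversion assumes the parametric form used by DESeq2, under which 77.9% to 83% of the low values of each library fell within 5% of a whole multiple of 1 step. MX2 did not pass the filter on low values. OAS1, TRIM22 and EPSTI1 passed it only through the siEZH2 libraries of MDA-MB-231 and CMPK2 only through those of SUM149, so counts without these 4 genes are given as well.

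After siEZH2 in MDA-MB-231, 41 of the 48 tested ISGs rose and 2 fell (limma, Benjamini-Hochberg adjusted p under 0.05 over 12356 genes), where 29.4% of all tested genes rose and 27.1% fell. Without the 4 genes named above, 38 of 44 rose and 2 fell. The median difference was 0.41 over the 48 genes and 0.00 over all genes. Summed over the 49 genes, the back-transformed normalised counts were 78607 and 81885 after siEZH2, against 49601 and 50405 in siControl. The median ratio was 1.5, and 9 genes reached at least 2-fold. The myeloid markers CD14 and CD68 also rose after siEZH2: CD68 had 11.79 and 11.82 on the variance-stabilised scale in MDA-MB-231 after siEZH2, against 10.72 and 10.95 in siControl (0.97 ± 0.09, limma adjusted p = 6.8e-07), and CD14 had 7.75 and 7.83, against 7.43 and 7.47 (0.34 ± 0.07, limma adjusted p = 0.00117). In SUM149 they rose by 1.15 and 0.57 (limma adjusted p = 1.4e-07 and 1.5e-05). CD3E was at the lowest value in all of these libraries and PTPRC at no more than 7.31, and 85.6% of the CD68 exon bases overlap another gene. The part of these markers in the ISG result was not tested.

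The largest rises were in SAMD9L and the IFIT cluster. SAMD9L, the paralogue of SAMD9 on chromosome 7, had 4007 and 3878 normalised counts after siEZH2, against 882 and 813 in siControl, a 4.65-fold difference (1.93 ± 0.06, limma adjusted p = 1.1e-10). IFIT2 had 3496 and 3810 normalised counts after siEZH2, against 777 and 799 in siControl, a 4.64-fold difference (1.90 ± 0.06, limma adjusted p = 1.1e-10). IFIT3 had 8981 and 9791 after siEZH2, against 3595 and 3953 in siControl (1.26 ± 0.08), and IFIT1 had 3807 and 4191, against 1881 and 1926 in siControl (0.97 ± 0.07). IFIT5 differed least within the cluster: it had 2238 and 2290 normalised counts after siEZH2, against 1982 and 1923 in siControl (0.19 ± 0.06, limma adjusted p = 0.0151). That call was lost without siControl replicate 2 (adjusted p = 0.0952) or siEZH2 replicate 2 (limma adjusted p = 0.0698). SAMD9 had 4963 and 5087 after siEZH2, against 3035 and 2930 in siControl (0.70 ± 0.06).

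All 11 genes for RNA binding proteins and oligoadenylate enzymes rose. DDX60 had 2638 and 2789 normalised counts after siEZH2, against 1212 and 1355 in siControl (0.95 ± 0.06), and OAS2 had 1328 and 1245, against 692 and 708 in siControl (0.70 ± 0.07). All 10 genes for ADP-ribosylation, TRIM, SAMD9 and nuclear body proteins rose too, though SP110 and TRIM22 lost their calls when single libraries of this line were left out (limma adjusted p from 0.0535 to 0.198). XAF1, a pro-apoptotic binding partner of XIAP, had 416 and 385 normalised counts after siEZH2, against 111 and 145 in siControl (0.89 ± 0.07), but 38.3% of its exon bases overlap another gene. PSMB9, an immunoproteasome subunit, had 999 and 926 normalised counts after siEZH2, against 477 and 487 in siControl (0.74 ± 0.08), and HERC6 had 1393 and 1353, against 736 and 743 in siControl (0.72 ± 0.06).

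Of the regulators, IRF9, the DNA-binding subunit of ISGF3, had 419.7 and 420.0 normalised counts after siEZH2, against 175 and 190 in siControl (0.69 ± 0.06, limma adjusted p = 1.2e-06). IRF1 had 1570 and 1498 after siEZH2, against 1156 and 1159 in siControl (0.34 ± 0.06, limma adjusted p = 0.00029). STAT2 had 2473 and 2268 after siEZH2, against 2309 and 2606 in siControl (-0.05 ± 0.06, limma adjusted p = 0.569), and the libraries overlapped. IRF7 had 165 and 251 after siEZH2, against 136 and 167 in siControl (0.22 ± 0.10, limma adjusted p = 0.0804).

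The 2 falls were small. HERC5 had 1801 and 1981 normalised counts after siEZH2, against 2337 and 2148 in siControl (-0.22 ± 0.07, limma adjusted p = 0.0169), and lost its call without siControl replicate 1 (adjusted p = 0.161) or siEZH2 replicate 1 (limma adjusted p = 0.137). PLSCR1, a lipid scramblase, had 699 and 693 after siEZH2, against 830 and 779 in siControl (-0.16 ± 0.06, limma adjusted p = 0.0263), and lost it without siControl replicate 1 or either siEZH2 library (adjusted p from 0.0619 to 0.161). The count of falls was 0 without siControl replicate 1 or siEZH2 replicate 1, and 1 without siEZH2 replicate 2. ISG15 itself had 2496 and 3545 after siEZH2, against 2236 and 2405 in siControl: its rise of 0.33 ± 0.12 dropped to 0.10 without siEZH2 replicate 2 (limma adjusted p = 0.502), and it was also lost without siControl replicate 1 (adjusted p = 0.218) or replicate 2 (adjusted p = 0.104).

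**Figure D3:**
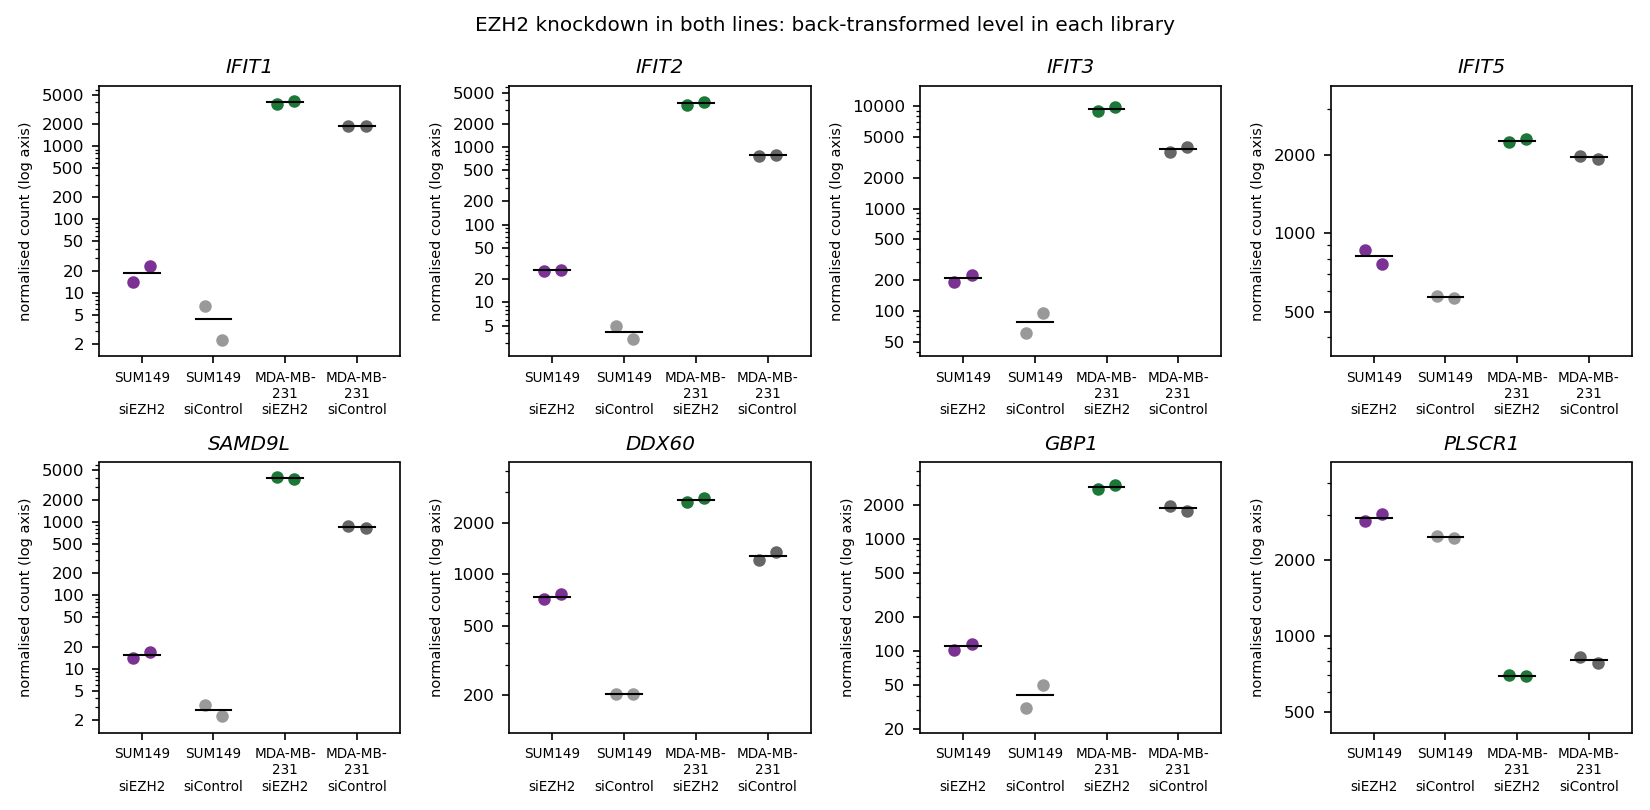
Back-transformed normalised counts (log axis) of 8 interferon-stimulated genes in each library after siEZH2 and siControl in SUM149 and MDA-MB-231, 2 points per group. IFIT2 has 25.5 and 26.3 after siEZH2 and 4.91 and 3.38 after siControl in SUM149, and 3496 and 3810 after siEZH2 and 777 and 799 after siControl in MDA-MB-231.

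After siEZH2 in SUM149, 36 of 48 ISGs rose and 0 fell by limma, where 29.4% of all tested genes rose and 28.6% fell. At an unadjusted p under 0.05 the falls were also 0 by limma, and 0 fell by edgeR on the back-transformed counts. Without the 4 genes kept through a single group, 34 of 44 rose. The median difference was 0.33, and the summed normalised counts were 30821 and 31191 after siEZH2, against 20224 and 21062 in siControl.

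DDX60 rose most on the variance-stabilised scale, with 721 and 766 normalised counts after siEZH2, against 201 and 203 in siControl, a 3.68-fold difference (1.2 ± 0.06, limma adjusted p = 7.4e-09). DDX60L had 1113 and 1277 after siEZH2, against 423 and 474 in siControl (1.06 ± 0.07). PARP9 had 791 and 884 after siEZH2, against 342 and 367 in siControl (0.87 ± 0.07), and DTX3L across the shared promoter had 2776 and 3015, against 1986 and 2061 in siControl (0.47 ± 0.06). So PARP9 and DTX3L, which differed in opposite directions between siRelA and siRelB, both rose after siEZH2, in this line and in MDA-MB-231 (0.49 and 0.34). SAMD9 (0.79), SP100 (0.73), UBE2L6 (0.68), SP110 (0.63), IFIT3 (0.63), IRF9 (0.61) and OAS3 (0.60) were the next largest rises. SP100 and SP110 encode nuclear body proteins, and SP110 had 328 and 314 normalised counts after siEZH2, against 123 and 159 in siControl.

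STAT2 was the regulator that responded differently from MDA-MB-231, with a difference of 0.39 ± 0.09 between the lines (limma adjusted p = 0.00757) that missed the threshold without MDA-MB-231 siControl replicate 2 (0.31, limma adjusted p = 0.051). STAT2 had 1863 and 1922 normalised counts after siEZH2, against 1403 and 1468 in siControl (0.34 ± 0.06, limma adjusted p = 0.00043), and IRF9 had 360 and 323, against 163 and 147 in siControl (0.61 ± 0.06, limma adjusted p = 3.5e-06). IRF1 had 920 and 976 after siEZH2, against 727 and 795 in siControl (0.25 ± 0.06, limma adjusted p = 0.00301). IRF7 had 113 and 126 after siEZH2, against 144 and 98.6 in siControl, with overlapping libraries (limma adjusted p = 0.981).

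Members of the IFIT cluster started from few reads in SUM149. IFIT3 had 194 and 227 normalised counts after siEZH2, against 60.5 and 95.8 in siControl, a 2.69-fold difference. IFIT2 had 25.5 and 26.3 after siEZH2, against 4.91 and 3.38 in siControl (0.37 ± 0.06, limma adjusted p = 0.00028), and IFIT1 had 13.8 and 23.3, against 6.57 and 2.24 in siControl (0.27 ± 0.07, limma adjusted p = 0.00669). The IFIT1 call was lost without siControl replicate 2 (limma adjusted p = 0.0557) or siEZH2 replicate 2 (limma adjusted p = 0.0758). SAMD9L, the gene with the largest rise in MDA-MB-231, had 13.9 and 17.1 normalised counts after siEZH2, against 3.20 and 2.25 in siControl. IFIT5 had 865 and 766 after siEZH2, against 573 and 564 in siControl (0.38 ± 0.06). In the IFITM cluster all 3 genes rose in both lines: IFITM1 by 0.35, IFITM2 by 0.56 and IFITM3 by 0.54 in SUM149, and by 0.44, 0.30 and 0.42 in MDA-MB-231.

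Both lines shared 32 risers, which is 78% of the 41 in MDA-MB-231 and 88.9% of the 36 in SUM149. Beside these shares, 75% of all 48 ISGs rose in SUM149 and 85.4% in MDA-MB-231. Without the 4 genes kept through a single group, 31 of 44 rose in both. Over all 12356 genes the risers shared by both lines made up 67.7% of those in MDA-MB-231 and 67.8% of those in SUM149. STAT2, CMPK2 and IFI44L passed in SUM149 without passing in MDA-MB-231, and OAS1, OAS2, ISG20, MX1, RSAD2, ISG15, PARP12, TRIM22 and IFI27 passed in MDA-MB-231 without passing in SUM149. PLSCR1 rose in SUM149, with 2840 and 3014 normalised counts after siEZH2, against 2481 and 2439 in siControl (0.23 ± 0.06), while it fell in MDA-MB-231. IRF7 and USP18 passed in neither line. By promoter word, 21 of 28 genes with the ISRE core and 12 of 13 without it rose in SUM149, and 25 of 28 with it and 11 of 13 without it rose in MDA-MB-231.

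The difference between the lines was tested as the effect in SUM149 minus that in MDA-MB-231. On the variance-stabilised scale 7 of 48 ISGs had a higher and 12 a lower effect in SUM149, where 11.2% and 10.4% of all tested genes did. The 12 were led by SAMD9L (-1.65), IFIT2 (-1.53), OAS2 (-0.70), IFIT1 (-0.70), XAF1 (-0.64) and IFIT3 (-0.63). On the back-transformed counts fitted with edgeR, the same 48 genes gave 10 higher and 2 lower effects, and the sign turned for SAMD9L (0.36), IFIT2 (0.42), IFIT1 (0.94), XAF1 (3.56), IFIT3 (0.12), HERC6 (0.28) and IFI44 (0.29). In ratios, IFIT2 differed 6.25-fold in SUM149 and 4.64-fold in MDA-MB-231, and IFIT3 differed 2.69-fold and 2.49-fold. No direction of the line difference can therefore be given for these 7 genes. Without the 4 genes kept through a single group, 6 of 44 had a higher and 11 a lower effect on the variance-stabilised scale. DDX60L (0.48), SP100 (0.44) and PLSCR1 (0.39) had a higher effect in SUM149 and PARP12 (-0.38) a lower one in every alternative run, and 4 genes in place of 7 had a higher effect without MDA-MB-231 siControl replicate 2.

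**Figure D4:**
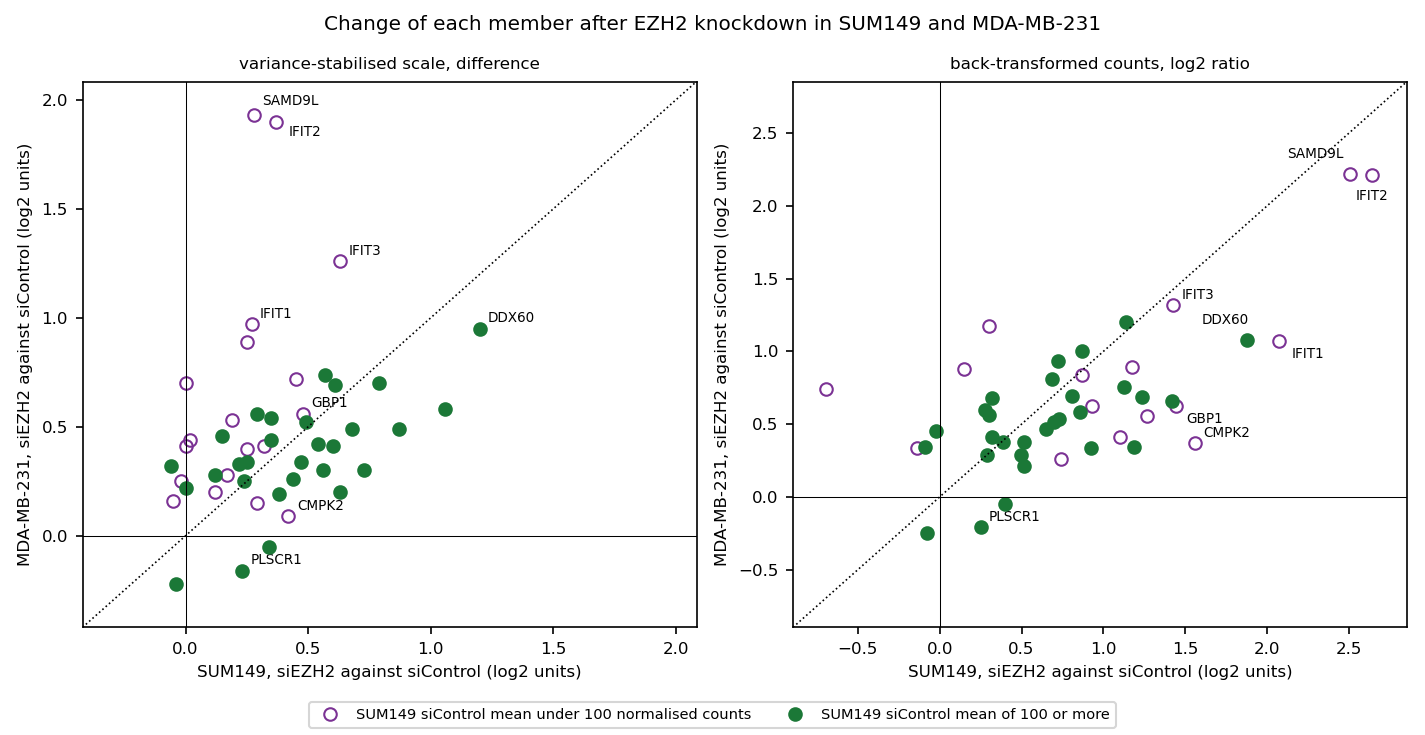
Effect of siEZH2 in SUM149 (x axis) against MDA-MB-231 (y axis) for each interferon-stimulated gene, as difference of variance-stabilised values (left, 48 genes) and as log2 ratio of back-transformed normalised counts (right, the 45 genes not at the lowest value in SUM149 siControl). Open symbols have a SUM149 siControl mean under 100 normalised counts. SAMD9L and IFIT2 lie far above the diagonal on the left (0.28 and 0.37 against 1.93 and 1.90) and near it on the right (5.68-fold and 6.25-fold against 4.65-fold and 4.64-fold).

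The siControl level of most ISGs differed between the lines. In siControl libraries 39 of 48 ISGs were lower in SUM149 than in MDA-MB-231 and 5 were higher, where 41.5% of all tested genes were lower and 41.3% higher. Without the 4 genes kept through a single group, 36 of 44 were lower and 5 higher. The median difference was -0.76, and the median ratio of normalised counts was 0.431. IFIT3 had 60.5 and 95.8 normalised counts in SUM149, against 3595 and 3953 in MDA-MB-231, and IFIT1 had 6.57 and 2.24, against 1881 and 1926. GBP1 had 31.1 and 49.5 in SUM149, against 1959 and 1773 in MDA-MB-231, and ISG15 had 239 and 157, against 2236 and 2405. MX2, RSAD2, XAF1 and EPSTI1 lay at the lowest value in both SUM149 siControl libraries. The SUM149 siControl mean was under 100 normalised counts for 20 of the 49 genes, and the MDA-MB-231 siControl mean for 6.

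Some members ran the other way. PLSCR1 had 2481 and 2439 normalised counts in SUM149 siControl libraries, against 830 and 779 in MDA-MB-231. IFITM2 had 837 and 842 in SUM149, against 233 and 248 in MDA-MB-231, and BST2, tetherin, which holds budding virions at the cell surface, had 2207 and 2441, against 940 and 931. These 3 held in every alternative run. OAS3 and DTX3L, at 0.17 each, lost their calls when single libraries were left out, OAS3 without MDA-MB-231 siControl replicate 1 (limma adjusted p = 0.281), either SUM149 siControl library (adjusted p = 0.0923 and 0.102) or SUM149 siEZH2 replicate 1 (limma adjusted p = 0.05), and DTX3L without MDA-MB-231 siControl replicate 2 (limma adjusted p = 0.173) or SUM149 siControl replicate 2 (adjusted p = 0.0987). Without SUM149 siControl replicate 2 the count of higher genes was 3.

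For most of the family, SUM149 after siEZH2 stayed below the siControl level of MDA-MB-231. For 35 of 49 genes both SUM149 siEZH2 libraries lay below both MDA-MB-231 siControl libraries, and for 12 both lay above. For 25 genes the 4 groups stood without overlap in the order MDA-MB-231 siEZH2, MDA-MB-231 siControl, SUM149 siEZH2 and SUM149 siControl, from high to low. Among the 12 above were IRF9, IFITM1, UBE2L6, PARP9, SP110 and PSMB9. No such counts were made over all genes, so how usual they are is not known. Already in siControl, 41.5% of all tested genes were lower in SUM149 and 41.3% higher. MX2, which did not pass the filter on low values, and RSAD2, at the lowest value in every SUM149 library, are among the 35. The values are levels of whole cultures of different lines, read in a single experiment.

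The siRelA and siEZH2 effects in MDA-MB-231 come from different libraries with different controls. Of the 48 ISGs fitted in both, 17 rose in both, which is 85% of the 20 risers after siRelA and 41.5% of the 41 after siEZH2. Of all 48 ISGs 85.4% rose after siEZH2, so the share among the siRelA risers was no higher than among ISGs at large. Over the 11185 genes fitted in both tables, the genes that rose in both made up 50.5% of the risers after siRelA and 18.6% of those after siEZH2. The 17 include IFIT1, IFIT2, IFIT3, OASL, DDX60, HERC6, SAMD9, SAMD9L and IFI44. The sizes were not alike: IFIT2 differed 1.69-fold after siRelA and 4.64-fold after siEZH2, while DDX60 differed 2.53-fold and 2.11-fold.

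The 4 genes that fell after siRelA, namely IRF1, GBP1, PARP12 and DTX3L, rose after siEZH2 in MDA-MB-231, as did 41 of all 48 ISGs. GBP1 had 2766 and 2991 normalised counts after siEZH2, against 1959 and 1773 in siControl (0.56 ± 0.08, limma adjusted p = 3.2e-05), beside its fall of 0.75 after siRelA. IRF1, GBP1 and DTX3L rose in SUM149 also, GBP1 with 103 and 116 normalised counts after siEZH2, against 31.1 and 49.5 in siControl. HERC5 was the reverse, with a rise of 0.59 after siRelA and a fall of 0.22 after siEZH2, of which only the rise held in every alternative run. RELB transcript was low after both knockdowns, and siRelB itself gave no called change in IRF1, GBP1, DTX3L or HERC5, while PARP12 fell (-0.31). The part of RELB in these results was not tested.

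Transcripts of the interferon ligand genes examined were at or near 0. All 10 interferon ligand genes examined, IFNB1, IFNA1, IFNA2, IFNE, IFNK, IFNW1, IFNL1, IFNL2, IFNL3 and IFNG, had 0 counts in all 6 libraries of the first experiment, which allows up to 0.123 to 0.161 CPM per library (3 counts, counting error only). In the second experiment 8 of the 10 lay at the lowest value in all 8 libraries. IFNB1 stood at 7.24 in 1 SUM149 siEZH2 library and IFNL1 at 7.23 in 1 MDA-MB-231 siControl library, each just above 7.12. Transcript of a ligand below this depth would not have been detectable.

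Of 30 pathway genes tested after siRelA, 6 rose (20%) and 3 fell (10%), beside 8.82% and 10.2% of all tested genes. The RNA sensor IFIH1 (MDA5, 1.33 ± 0.18), its regulator DHX58 (1.04 ± 0.24), the lambda interferon receptor chain IFNLR1 (0.88 ± 0.26), the endosomal sensor TLR3 (0.78 ± 0.20) and the adaptor STING1 (0.69 ± 0.16) rose, as did the RNA editor ADAR. The feedback inhibitor SOCS3 (-0.65 ± 0.11) and the interferon gamma receptor chains IFNGR1 (-0.46 ± 0.14) and IFNGR2 (-0.44 ± 0.10) fell. After siRelB 2 rose (6.67%) and 4 fell (13.3%), shares near the 7.45% and 10.8% of all tested genes, among them the kinase TBK1 (-1.34 ± 0.13) and the inhibitor SOCS1 (-0.91 ± 0.17).

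After siEZH2 15 of 29 pathway genes rose and 6 fell in MDA-MB-231, and 15 rose and 7 fell in SUM149. The risers were 51.7% in each line, where 29.4% of all tested genes rose, and the falls were 20.7% and 24.1%, where 27.1% and 28.6% of all tested genes fell. TLR3 rose by 0.72 ± 0.07 in MDA-MB-231 and by 1.07 ± 0.07 in SUM149, STING1 by 0.66 and 0.68, and IFNAR1, a chain of the type I interferon receptor, by 0.63 and 0.83. JAK2, a kinase of the interferon gamma receptor, rose by 0.54 and 0.76. IFNLR1, which rose after siRelA, fell after siEZH2 by 0.80 in MDA-MB-231 and by 0.66 in SUM149. Of 5 negative regulators tested, 0 rose and 3 fell in MDA-MB-231, while 2 rose and 2 fell in SUM149. The phosphatases PTPN1 and PTPN2, which switch off JAK-STAT signalling, fell in both lines, PTPN1 by 0.99 and 0.49 and PTPN2 by 0.33 and 0.27. RIGI, the RNA sensor RIG-I, was lower in SUM149 than in MDA-MB-231 siControl libraries by 2.78 on the variance-stabilised scale, in the same direction as most ISGs. Between the siControl lines, 16 of 29 pathway genes were lower in SUM149 (55.2%) and 6 higher (20.7%), beside 41.5% and 41.3% of all tested genes.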

How the data were processed

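The authors deposited raw read counts per Ensembl gene for 6 libraries and, for 8 others, variance-stabilised values, on a scale close to log2, whose lowest value is 7.12. Per the submitters' processing notes, the counts involved HISAT2 2.0.5 with featureCounts 1.5.0-p3 and DESeq2 1.20.0, and the other table involved cutadapt, STAR 2.5.2b, Salmon and DESeq2, both on hg19. What each tool did, and the strand setting, is not given in the sources used here. Here, the 6 count libraries entered 1 quasi-likelihood fit of edgeR 4.0.16 (TMM, default low-count filter, 3 residual degrees of freedom, biological coefficient of variation 10.1%), and the 8 others 1 fit of limma 3.58.1 (variance trend), for genes that exceeded the lowest value by 1 or more in 2 or more libraries (4 residual degrees of freedom). Printed CPM are TMM-scaled. In the main fits a p-value weighs a difference against a spread estimated over all groups and moderated across genes. With 2 replicates per group, that spread covers only these samples. Count identifiers were named through GENCODE v44.

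All 49 genes could be named, each regulator with values in every group, with up to 10 of the largest called genes per direction for each knockdown and up to 5 for other comparisons. The genes, lists and tests were chosen with earlier results of these data known. Same-numbered replicates did not deviate together. Both fits were tested on simulated data. Some genes of the fixed lists are not reported here by name. Alternatives covered normalisation, filters, DESeq2 1.42.0, fewer groups, the replicate block and each left-out library. R was 4.3.3, Python 3.11.15, pandas 2.3.3, numpy 2.4.6 and matplotlib 3.10.9.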

Additional observations from a re-analysis of the deposited data

Results flagged for a closer look

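The effect of siEZH2 differed between SUM149 and MDA-MB-231, by the limma interaction term on variance-stabilised values, for 19 ISGs. On that scale it was lower in SUM149 for SAMD9L (-1.65), IFIT2 (-1.53), IFIT1 (-0.70), OAS2 (-0.70), XAF1 (-0.64), IFIT3 (-0.63), OAS1 (-0.41), RSAD2 (-0.41), PARP12 (-0.38), IFI44 (-0.34), IFI27 (-0.31) and HERC6 (-0.27). On the back-transformed counts in edgeR the sign turned for SAMD9L (0.36), IFIT2 (0.42), IFIT1 (0.94), XAF1 (3.56), IFIT3 (0.12), HERC6 (0.28) and IFI44 (0.29), so no direction is given for these 7. On the variance-stabilised scale it was higher in SUM149 for CMPK2 (0.33), PARP9 (0.38), PLSCR1 (0.39), STAT2 (0.39), SP110 (0.43), SP100 (0.44) and DDX60L (0.48). Beside these values, the SUM149 siControl mean was under 100 normalised counts for SAMD9L, IFIT1, IFIT2, IFIT3, OAS1, OAS2, XAF1, RSAD2, IFI44, HERC6 and CMPK2. RSAD2 lay at the lowest value in all 4 SUM149 libraries, so its difference is its change in MDA-MB-231 alone. CMPK2 passed the filter on low values only through the SUM149 siEZH2 libraries and OAS1 only through those of MDA-MB-231, which bears on their differences. No group holds enough libraries to look for a single library that stands apart.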

How the results depend on the processing

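Alternatives covered another normalisation, filters, tools, fewer groups and each library left out. Of the 8 changes of sign, all were in the difference between lines on back-transformed counts in edgeR: SAMD9L (0.36), IFIT2 (0.42), IFIT3 (0.12), IFIT1 (0.94), HERC6 (0.28), XAF1 (3.56) and IFI44 (0.29), lower effects in SUM149 otherwise, and GBP1 (0.81), not called otherwise. Lower effects there numbered 2 in place of 12. Falls after siRelB numbered 1 on total counts only and 4 with no filter, and falls after siEZH2 in MDA-MB-231 numbered 1 when only the 2 groups compared were fitted; the cause was not tested. Leaving out 1 library at a time gave 11 to 23 rises and 2 to 5 falls after siRelA, 1 to 6 and 0 to 4 after siRelB, 34 to 42 and 0 to 2 after siEZH2 in MDA-MB-231, and 32 to 36 rises after it in SUM149. It gave 4 to 8 higher and 8 to 12 lower effects between lines, and 3 to 5 higher and 38 to 39 lower genes between siControl lines. A left-out library leaves 1 sample in its group, which is assumed to vary like the others. Single ISGs lost a call in 174 and gained one in 68 of 4751 comparisons with an alternative. Same-numbered replicates share only a number (correlations of deviations from -0.117 to 0.0879 within a line). With the replicate block the calls were 21 higher and 4 lower after siRelA, 5 and 3 after siRelB, 18 and 4 for siRelA against siRelB, 42 and 2 after siEZH2 in MDA-MB-231, 36 and 0 after siEZH2 in SUM149, 7 and 11 between lines, and 4 and 39 between siControl lines. A crossed pairing in SUM149, added after seeing the data, also gave 36 and 0. Low counts limit IRF9 and CMPK2 in the first experiment and the ISGs near the lowest value in SUM149.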
